A study of Homo sapiens with 36 samples.

Results

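The genes followed belong to the MHC class I antigen presentation pathway: the heavy chains HLA-B, HLA-C and HLA-E, the light chain B2M, the peptide transporter subunits TAP1 and TAP2, the immunoproteasome subunits PSMB8 and PSMB9, and the transactivator NLRC5. The genes were chosen by name, and their Ensembl IDs were matched to symbols in a matrix of read counts: 9 genes of 57500 IDs. RNA selected on polyA was sequenced from OE33 and FLO1, human esophageal adenocarcinoma cell lines grown as bulk cultures, OE33 in RPMI1640 and FLO1 in DMEM, so that line and medium cannot be told apart. Each line carried, by stable transduction, the shRNA shAPE1#1 or shAPE1#3 against APE1 (gene APEX1, a base excision repair endonuclease and redox factor) or the control shRNA shControl. The cells of each were exposed to acidic bile salts (ABS), 20 min in 200 µM bile salts brought to pH 4 and 6 h of recovery in complete medium, or left unexposed. The resulting 12 groups held 3 libraries each, stated to be independent biological replicates. The exposure stands for the reflux of gastric and bile fluid into the esophagus, and the design asks what APE1 knockdown changes with and without it.

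Class I molecules display peptides from inside the cell to CD8+ T cells. Proteasomes cut cytosolic proteins, the TAP1 and TAP2 heterodimer pumps the peptides into the endoplasmic reticulum, and a heavy chain paired with B2M carries a fitting peptide to the surface. PSMB8 and PSMB9 replace the constitutive subunits PSMB5 and PSMB6 in the immunoproteasome. HLA-E presents leader peptides of other heavy chains to receptors on natural killer cells. NLRC5 switches on many of these genes through a conserved promoter module, and interferons raise most of the pathway.

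The 36 libraries held 20650925 to 40654584 counts. All 9 genes were well counted, from 446 counts at the lowest (NLRC5) to 54524 at the highest (HLA-C) in a library, and all 9 passed the filter on low counts in every fit. APEX1 fell with both hairpins: it averaged 25.1 ± 2.26 and 23.2 ± 0.608 CPM in unexposed OE33 shAPE1#1 and shAPE1#3 cells, against 205 ± 5.47 CPM in OE33 shControl cells, and 24.3 ± 0.0777 and 35.6 ± 1.39 CPM in FLO1 shAPE1#1 and shAPE1#3 cells, against 188 ± 3.96 CPM in FLO1 shControl cells (SD, n = 3 each; CPM, counts scaled to library size with TMM normalisation). In unexposed OE33 cells shAPE1#3 against shAPE1#1 gave 0 calls among 15540 genes with edgeR (1248 at an unadjusted p under 0.05; 25 calls with DESeq2), and the members' differences lay between -0.08 (B2M) and 0.09 (TAP2) on the log2 scale. Whether both groups carry distinct hairpins was not tested. The FLO1 shControl library of replicate 2 after ABS stood farthest from its group, with a root mean square deviation of 0.279 on the log2 scale against at most 0.215 for the other libraries, and the members' results in FLO1 and between the lines that it entered are also given without it. Another library, replicate 3 of the ABS-exposed FLO1 shAPE1#3 cells, carries a suffix in its name that the others lack; leaving it out changed no count of members called by over 1.5 times.

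All 7 epithelial markers reached 1 CPM on average in OE33, but only 5 of 7 did in FLO1, where EPCAM averaged 0.942 CPM and ELF3 0.803 CPM in shControl cells. The 10 immune markers summed to 5.87 to 8.91 CPM in OE33 libraries and 2.90 to 8.43 CPM in FLO1 libraries. Of these 10, 3 averaged at least 1 CPM in OE33 and 1 did in FLO1. PTPRC, the leukocyte common antigen, averaged 0.0118 CPM in OE33 shControl cells and 0 CPM in FLO1 shControl cells. In these bulk samples, fewer cells with a transcript and less transcript per cell cannot be told apart.

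By gene in GENCODE 29 (GRCh38), HLA-B (ENSG00000234745) lies at chr6:31269491-31357188, HLA-C (ENSG00000204525) at chr6:31268749-31272130, HLA-E (ENSG00000204592) at chr6:30489467-30494205, TAP2 (ENSG00000204267) at chr6:32821833-32838780, PSMB8 (ENSG00000204264) at chr6:32840717-32844703, TAP1 (ENSG00000168394) at chr6:32845209-32853978 and PSMB9 (ENSG00000240065) at chr6:32844136-32859585, all in the MHC. B2M (ENSG00000166710) lies at chr15:44711487-44718877 and NLRC5 (ENSG00000140853) at chr16:56989485-57083531. Heavy chains and B2M stood well above the processing genes in both lines, and OE33 had more of most of them than FLO1. Per kilobase of merged exon in unexposed shControl cells, the OE33 order was HLA-C (635 CPM per kb), HLA-B (363), B2M (214), HLA-E (150.4), PSMB8 (73.7), PSMB9 (24.8), TAP1 (24.4), TAP2 (10.0) and NLRC5 (3.46). Of these neighbours, PSMB9 and TAP1 overlapped in their 3 libraries. In FLO1 the order was HLA-C (180.4 CPM per kb), HLA-B (176), HLA-E (113), B2M (109), TAP1 (29.2), PSMB9 (20.6), PSMB8 (16.6), TAP2 (12.2) and NLRC5 (1.47), and the libraries of HLA-C and HLA-B, and of HLA-E and B2M, overlapped. Both orders depend on merged exon length, which joins all annotated exons of a gene and can exceed the transcript expressed. It was 6079 bases for B2M, 3051 for HLA-B and 2507 for HLA-C. By CPM alone, OE33 B2M (1300) lay between HLA-C (1591) and HLA-B (1108). In FLO1, B2M (661 CPM) lay above HLA-B (537) and HLA-C (452). The place of B2M among the heavy chains is thus not settled.

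Of the 9 genes, 6 were higher and 2 were lower in OE33 than in FLO1 (edgeR quasi-likelihood test, Benjamini-Hochberg adjusted p under 0.05, the rule for every call below), where 77.6% of 18199 genes differed (37.6% higher and 39.9% lower). PSMB8 differed most, with 221 ± 14.6 CPM in OE33 and 49.7 ± 4.33 CPM in FLO1 (log2 difference 2.15, SE 0.09, adjusted p = 4.0e-23). HLA-C was 1.82 higher on the log2 scale in OE33, NLRC5 1.23, HLA-B 1.05, B2M 0.98 and HLA-E 0.41, while TAP1 (-0.26) and TAP2 (-0.28) were lower. PSMB9 did not pass (log2 difference 0.27, SE 0.13, adjusted p = 0.051), but passed without the FLO1 library that stood apart (0.28, adjusted p = 0.038). The members' share called, 8 of 9, is read against that background and is not particular to them.

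**Figure D1:**
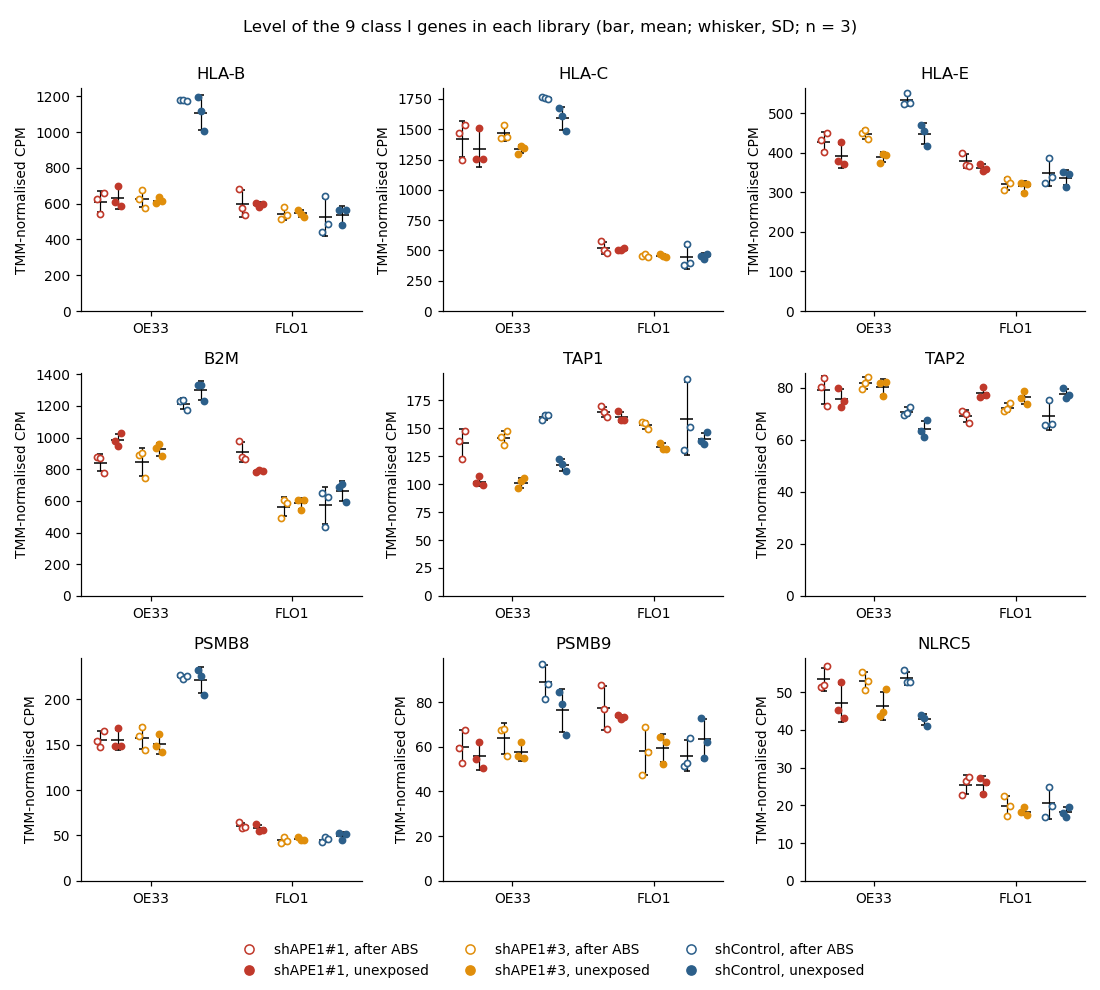
Each panel plots 1 gene, with TMM-normalised CPM on the vertical axis from 0 and the 6 groups of OE33 and of FLO1 side by side; circles are libraries (open after ABS, filled unexposed), bars group means and whiskers SD. In OE33 the shAPE1 circles of HLA-B, B2M and PSMB8 all lie below the shControl circles, and within the same exposure those of TAP2 lie above them.

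Promoter windows from RefSeq (GRCh38.p14, 250 bases before to 50 after a start site) were found for 7 of the 9 genes, HLA-E and NLRC5 not being among them. The windows shown were picked with the results known. HLA-B, HLA-C and B2M share the class I promoter module and fell in OE33 with knockdown. TAP1 changed with ABS in OE33, and TAP2 rose in OE33 with knockdown. Capitals mark 4 motifs, searched on both strands: the Y box core GATTGGC, the X2 box TGACG, the interferon-stimulated response element (GAAA, any 2 bases, GAAA) and a kappa B motif (GGGA, any base, T, any 2 bases, CC). All are printed 5′ to 3′ on the strand of the gene.
HLA-B (chr6:31357130-31357429, minus strand): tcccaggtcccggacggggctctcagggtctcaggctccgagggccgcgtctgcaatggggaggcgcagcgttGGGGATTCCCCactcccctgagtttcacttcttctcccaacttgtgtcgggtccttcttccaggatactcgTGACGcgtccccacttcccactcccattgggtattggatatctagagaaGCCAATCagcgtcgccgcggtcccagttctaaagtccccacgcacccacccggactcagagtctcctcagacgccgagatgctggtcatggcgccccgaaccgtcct
HLA-C (chr6:31272043-31272342, minus strand): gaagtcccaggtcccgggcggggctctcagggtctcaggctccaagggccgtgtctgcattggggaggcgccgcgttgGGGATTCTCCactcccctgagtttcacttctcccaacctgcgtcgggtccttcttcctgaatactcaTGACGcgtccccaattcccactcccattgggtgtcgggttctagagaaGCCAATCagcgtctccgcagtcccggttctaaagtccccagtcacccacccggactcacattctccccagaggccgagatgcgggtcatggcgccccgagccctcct
B2M (chr15:44711267-44711566, plus strand): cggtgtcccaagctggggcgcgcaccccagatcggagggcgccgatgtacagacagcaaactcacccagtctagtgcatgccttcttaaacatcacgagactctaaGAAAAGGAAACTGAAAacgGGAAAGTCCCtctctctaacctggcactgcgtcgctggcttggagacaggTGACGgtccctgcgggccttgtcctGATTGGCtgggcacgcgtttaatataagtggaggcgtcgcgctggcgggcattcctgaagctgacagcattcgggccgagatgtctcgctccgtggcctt
TAP1 (chr6:32853655-32853954, minus strand): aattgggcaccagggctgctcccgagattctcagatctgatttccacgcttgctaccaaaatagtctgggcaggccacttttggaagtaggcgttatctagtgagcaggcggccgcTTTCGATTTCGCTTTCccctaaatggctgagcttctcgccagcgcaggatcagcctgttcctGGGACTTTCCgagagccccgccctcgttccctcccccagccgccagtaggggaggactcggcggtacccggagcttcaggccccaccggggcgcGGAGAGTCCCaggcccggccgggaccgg
TAP2 (chr6:32838690-32838989, minus strand): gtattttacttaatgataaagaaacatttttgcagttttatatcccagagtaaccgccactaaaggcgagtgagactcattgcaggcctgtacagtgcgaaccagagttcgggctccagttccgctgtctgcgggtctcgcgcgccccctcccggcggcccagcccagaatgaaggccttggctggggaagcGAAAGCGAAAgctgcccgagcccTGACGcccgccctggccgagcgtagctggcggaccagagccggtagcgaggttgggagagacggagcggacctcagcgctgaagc

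The letters GATTGGC begin at -57 from the start site in HLA-B and HLA-C, on the strand opposite to the gene. In B2M they begin at -50, on the strand of the gene. X2 letters begin at -106, -105 and -75 in HLA-B, HLA-C and B2M, so the HLA matches lie farther from them. About where B2M has GATTGGC, the HLA-B and HLA-C windows have cattgggt, which lacks these letters and is unmarked. The marked letters in HLA-B and HLA-C therefore need not be the Y box of the shared module, and this was not tested. GATTGGC was in 6.55% of all 35116 RefSeq promoter windows of the same length. No window of TAP1, TAP2, PSMB8 or PSMB9 held GATTGGC, and PSMB8 and PSMB9 also fell in OE33 with knockdown. X2 letters (24.6% of windows) were in HLA-B, HLA-C, B2M, TAP2, PSMB9 and 1 of 2 PSMB8 windows. The response element (3.57% of windows) was in B2M, TAP1, TAP2 and the other PSMB8 window, with 2 overlapping matches each in B2M and TAP1. Kappa B letters (5.13% of windows) were in HLA-B, HLA-C, B2M and TAP1, with 2 matches each in TAP1 and in HLA-B, where they overlap. These are matches of letters, and no binding was measured. The TAP1 and PSMB9 windows overlap at their ends, since the genes start head to head. A second TAP1 window, from another start site, held none of the 4 motifs.

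In OE33, APE1 knockdown lowered the heavy chains, the light chain and the immunoproteasome subunits together, with HLA-B falling most, while TAP2 rose. With shAPE1#1, 7 of the 9 genes passed the test in unexposed cells, 1 higher and 6 lower, where 16.4% of 15540 genes passed (8.24% higher and 8.13% lower). With shAPE1#3, 8 of 9 passed, 1 higher and 7 lower, where 21.7% did (11.2% higher and 10.5% lower). The members' median log2 change was -0.25 with either hairpin, against 0.01 with shAPE1#1 and 0.00 with shAPE1#3 over all genes. The 7 epithelial markers summed to 19100 to 21600 and 19700 to 20800 CPM in these shAPE1#1 and shAPE1#3 libraries, against 23000 to 25800 CPM in shControl libraries. Such a sum follows its most abundant genes, and the part of these markers in the results was not tested. Both hairpins were set against the same shControl libraries, so their agreement is not independent.

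HLA-B had 607, 701 and 587 CPM in OE33 shAPE1#1 libraries and 604, 636 and 613 CPM in shAPE1#3 libraries, against 1199, 1119 and 1005 CPM in shControl libraries. Every knockdown library was below every shControl library. The log2 change was -0.81 (SE 0.08, adjusted p = 4.1e-08) with shAPE1#1 and -0.84 (SE 0.08, adjusted p = 2.3e-08) with shAPE1#3, folds of 1.75 and 1.79. By size of change HLA-B stood at percentile 93.1 and 92.5 of all genes tested with these hairpins. HLA-C, its neighbour on chromosome 6, fell less: it had 1251, 1514 and 1256 CPM with shAPE1#1 and 1298, 1364 and 1344 CPM with shAPE1#3, against 1676, 1610 and 1488 CPM with shControl. The shAPE1#1 and shControl libraries overlapped for HLA-C, and the log2 changes were -0.25 (SE 0.08) with both hairpins, with adjusted p = 0.028 and 0.021. HLA-E had 379, 426 and 371 CPM with shAPE1#1 and 374, 398 and 394 CPM with shAPE1#3, against 470, 454 and 418 CPM with shControl, changes of -0.19 (SE 0.07, adjusted p = 0.049) and -0.20 (SE 0.07, adjusted p = 0.030). Here too 1 shAPE1#1 library lay within the shControl range.

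The light chain B2M had 977, 945 and 1026 CPM with shAPE1#1 and 931, 961 and 884 CPM with shAPE1#3, against 1335, 1334 and 1231 CPM with shControl. The groups did not overlap, and B2M fell by 0.40 (SE 0.07, adjusted p = 0.00017) and by 0.49 (SE 0.07, adjusted p = 1.4e-05) on the log2 scale. PSMB8, the immunoproteasome counterpart of PSMB5, had 148, 168 and 149 CPM with shAPE1#1 and 148, 162 and 141 CPM with shAPE1#3, against 233, 225 and 205 CPM with shControl. It fell by 0.51 (SE 0.07, adjusted p = 1.5e-05) and by 0.55 (SE 0.07, adjusted p = 5.2e-06), again with no overlap. PSMB9, the counterpart of PSMB6, had 54.4, 62.3 and 50.4 CPM with shAPE1#1 and 55.7, 62.0 and 54.8 CPM with shAPE1#3, against 84.3, 79.1 and 65.4 CPM with shControl. Its change was -0.45 (SE 0.11, adjusted p = 0.0036) and -0.40 (SE 0.11, adjusted p = 0.0076), and the lowest shControl library stood just above the highest knockdown library.

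The transporter subunits went apart. TAP2 rose, with 80.0, 72.7 and 75.1 CPM with shAPE1#1 and 81.8, 76.9 and 82.5 CPM with shAPE1#3, against 63.6, 61.3 and 67.5 CPM with shControl, changes of 0.24 (SE 0.07, adjusted p = 0.014) and 0.33 (SE 0.07, adjusted p = 0.0010). TAP1 had 101, 107 and 98.8 CPM with shAPE1#1 and 96.2, 102 and 105 CPM with shAPE1#3, against 122, 118 and 112 CPM with shControl. TAP1 passed with shAPE1#3 (-0.21, SE 0.07, adjusted p = 0.036) and missed the threshold with shAPE1#1 (-0.20, SE 0.07, adjusted p = 0.056). NLRC5, the transactivator, did not pass: it had 45.2, 52.8 and 43.2 CPM with shAPE1#1 and 43.8, 44.7 and 50.7 CPM with shAPE1#3, against 44.0, 43.3 and 41.1 CPM with shControl, changes of 0.14 (95% interval -0.02 to 0.30) and 0.12 (-0.04 to 0.28).

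The calls of HLA-B, B2M and PSMB8 held in every alternative run. Those of HLA-C, HLA-E and TAP1 with shAPE1#3 were lost without shControl replicate 1 or 2 or without any shAPE1#3 replicate (adjusted p up to 0.181). With shAPE1#1, HLA-C and HLA-E were lost without shControl replicate 1 or 2 or shAPE1#1 replicate 1 or 3 and with only the groups compared (up to 0.225). HLA-E was also lost with the replicate block, with DESeq2 size factors and with no filter, 8 of 11 alternatives in all. With the same hairpin TAP2 was lost without shControl replicate 2 or shAPE1#1 replicate 1, with no filter or with only the groups compared (up to 0.085). PSMB9 with shAPE1#3 was lost without shControl replicate 1 (adjusted p = 0.067).

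**Figure D2:**
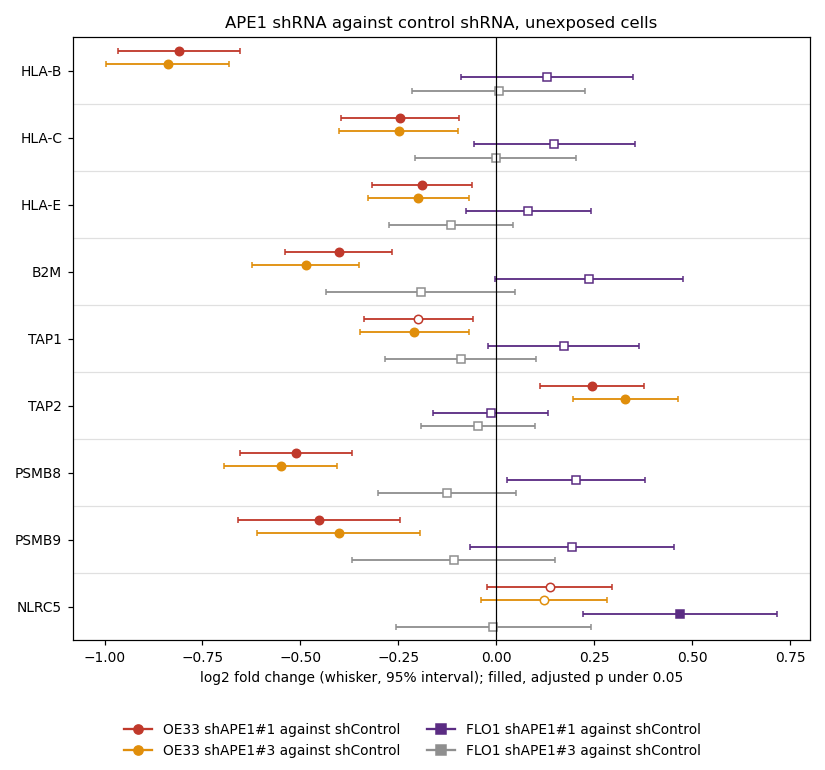
The log2 fold change of each gene (vertical axis) is plotted for shAPE1#1 and shAPE1#3 against shControl in unexposed OE33 (circles) and FLO1 (squares) cells; whiskers are 95% intervals and filled marks passed the test. HLA-B, B2M, PSMB8 and PSMB9 are filled marks left of 0 with both hairpins in OE33, where TAP2 is filled right of 0, and none of the FLO1 marks of these 5 genes is filled.

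After ABS the OE33 picture was much the same. With shAPE1#1 7 of 9 genes were lower and 0 higher (15.8% of all genes passed, 8.46% lower), and with shAPE1#3 6 were lower and 1 higher (18.1% passed, 8.75% higher and 9.31% lower). HLA-B had 628, 545 and 661 CPM in shAPE1#1 libraries and 628.5, 674 and 578 CPM in shAPE1#3 libraries, against 1178, 1178 and 1175 CPM in shControl libraries, and fell by 0.94 and 0.90 (SE 0.08 each, adjusted p = 3.0e-09 and 6.8e-09). PSMB9 fell by 0.57 and 0.47, PSMB8 by 0.53 and 0.50, B2M by 0.53 and 0.51, HLA-E by 0.32 and 0.25, and HLA-C by 0.31 and 0.26. TAP1 fell by 0.23 with shAPE1#1 (SE 0.07, adjusted p = 0.024) and had a change of -0.17 with shAPE1#3 (adjusted p = 0.088). TAP2 rose by 0.21 with shAPE1#3 (adjusted p = 0.029) and had a change of 0.16 with shAPE1#1 (adjusted p = 0.12). NLRC5 did not pass, at -0.01 with both. The calls of HLA-B, B2M, PSMB8, PSMB9 and HLA-E held in every alternative. HLA-C with shAPE1#1 was lost without shAPE1#1 replicate 2 after ABS (adjusted p = 0.053), and the calls of TAP1, of TAP2 and of HLA-C with shAPE1#3 were lost without any of 4 or 5 libraries each (up to 0.145), TAP1 also with only the groups compared and TAP2 with no filter.

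The HLA-B transcript also fell relative to HLA-C, and the immunoproteasome subunits relative to their constitutive counterparts. The ratios use merged exon lengths, so they compare groups and do not give proportions of subunits. Per kilobase, the ratio of HLA-B to HLA-C was 0.388 ± 0.00951 and 0.380 ± 0.00460 in unexposed OE33 shAPE1#1 and shAPE1#3 cells, against 0.571 ± 0.0166 in shControl cells (SD, n = 3). PSMB8 over PSMB5 was 0.474 ± 0.0144 and 0.491 ± 0.0153, against 0.745 ± 0.00992 with shControl. PSMB9 over PSMB6 was 0.201 ± 0.0116 and 0.224 ± 0.00285, against 0.295 ± 0.0209. TAP1 over TAP2 was 1.79 ± 0.146 and 1.68 ± 0.104, against 2.44 ± 0.212. In each of these ratios all unexposed knockdown libraries lay below all unexposed shControl libraries. PSMB5, PSMB6 and PSMB7 themselves gave 0 calls of 3 in every knockdown and ABS comparison within a line; in OE33 PSMB5 changed by 0.14 (SE 0.08) with shAPE1#1 and 0.05 (SE 0.08) with shAPE1#3. In FLO1 PSMB8 over PSMB5 was 0.145 ± 0.00428 and 0.118 ± 0.00534, against 0.126 ± 0.00428 with shControl.

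**Figure D3:**
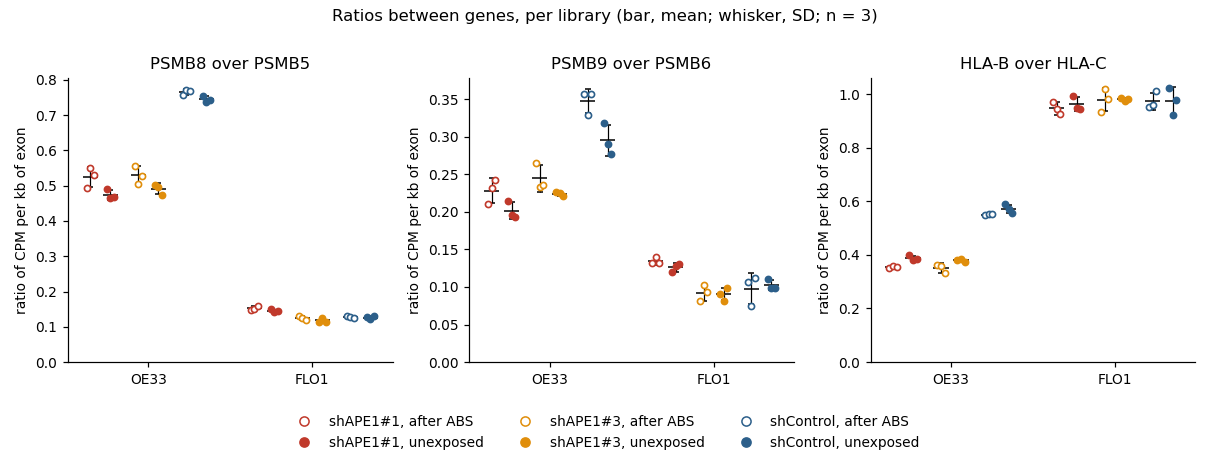
Ratios of CPM per kilobase (vertical axes from 0) of PSMB8 over PSMB5, PSMB9 over PSMB6 and HLA-B over HLA-C in each library, by line, shRNA and exposure, with bars for means and whiskers for SD. In OE33 the shAPE1 libraries sit at 0.465 to 0.557 for PSMB8 over PSMB5, below the shControl libraries.

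Some exons are shared with other genes, and the sources used here do not give the strand and multiple-mapping settings of the counting. PSMB8-AS1, an antisense gene, overlaps 20.6% of the exon bases of PSMB8, 9.49% of TAP1 and 5.66% of PSMB9, and averaged 2.84 ± 0.353 and 2.71 ± 0.200 CPM in unexposed OE33 shAPE1#1 and shAPE1#3 cells, against 7.60 ± 0.340 CPM in shControl cells. Over all 36 libraries its total was 2.46% of the PSMB8 count, but it averaged only 0.816 CPM in unexposed FLO1 shControl cells. The shares of counts below are also totals over all 36 libraries. How reads in shared bases were counted is not known, so such shares do not bound the effect on the members. HLA-B overlaps the antisense gene AL671883.2 over 542 exon bases (0.323% of the HLA-B count), and TAP2 shares 32.3% of its exon bases with AL669918.1 on the same strand (1.07% of its count). Members also overlap each other: PSMB8 and PSMB9 share 139 exon bases on opposite strands (4.64% of PSMB8 and 4.52% of PSMB9), and HLA-B and HLA-C share 35 on the same strand (1.15% and 1.4%). HLA genes are near-identical in parts and differ between people, so reads may have been split or lost by how far the alleles of each line lie from the reference; their levels, and comparisons between the lines or between HLA genes, are uncertain to that extent, and this was not tested.

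In FLO1 few of these genes passed the test, all of them higher and all with shAPE1#1. In unexposed cells shAPE1#1 gave 1 call of 9, where 6.74% of 16868 genes passed (4.52% higher): NLRC5 had 27.3, 22.9 and 26.3 CPM, against 18.1, 17.0 and 19.6 CPM with shControl, and rose by 0.47 (SE 0.13, adjusted p = 0.026). The other 8 had changes from -0.01 (TAP2) to 0.24 (B2M), and 8 of the 9 changes were above 0. The 7 epithelial markers summed to 3570 to 3810 CPM in these shAPE1#1 libraries, against 2300 to 2670 CPM in shControl libraries. Only 5 of the 7 averaged at least 1 CPM in each group, and the sum follows the most abundant of them. The part of these markers in the results was not tested. With shAPE1#3 0 of 9 passed (0 at an unadjusted p under 0.05, 0 with DESeq2), where 0.788% of all genes did, and 0 of 9 without the FLO1 library that stood apart. HLA-B, the gene that fell most in OE33, had 607, 580 and 596 CPM in FLO1 shAPE1#1 libraries and 567, 544 and 528 CPM in shAPE1#3 libraries, against 565, 481 and 565 CPM in shControl libraries. Its changes were 0.13 (95% interval -0.09 to 0.35) and 0.01 (-0.21 to 0.23). The NLRC5 call was lost without shControl replicate 1 or 2 or shAPE1#1 replicate 1 or 3 (adjusted p up to 0.123). Without the FLO1 shControl library that stood apart, which enters this fit through the pooled spread only, B2M passed too (0.23, SE 0.08, adjusted p = 0.046).

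After ABS, FLO1 shAPE1#1 cells had more B2M, PSMB8 and PSMB9 than shControl cells, 3 of 9 genes, where 16.6% of all genes passed (8.26% higher). B2M had 981, 880 and 862 CPM with shAPE1#1, against 653, 436 and 626 CPM with shControl, and rose by 0.64 (SE 0.12, adjusted p = 0.0012). The low shControl value, 436 CPM, came from the library that stood apart. PSMB8 had 64.3, 58.4 and 58.8 CPM against 42.4, 47.9 and 45.8 CPM and rose by 0.39 (SE 0.09, adjusted p = 0.0051), and PSMB9 had 87.6, 77.0 and 67.8 CPM against 51.6, 52.6 and 63.9 CPM and rose by 0.44 (SE 0.13, adjusted p = 0.026). Without shControl replicate 2 after ABS, 6 of 9 passed: B2M rose by 0.47, NLRC5 by 0.45, PSMB8 by 0.43, PSMB9 by 0.40, HLA-C by 0.39 and HLA-B by 0.34 (adjusted p = 0.00036 to 0.049). When only the 2 groups compared entered the fit, 0 of 9 passed, and PSMB9 was also lost without shAPE1#1 replicate 1 or 2 after ABS (up to 0.15). With shAPE1#3 after ABS 0 of 9 passed (0 at an unadjusted p under 0.05, 0 with DESeq2), where 0.783% of all genes did. Without that shControl library 0 of 9 passed too (3 at an unadjusted p under 0.05), where 6.48% of all genes did, and HLA-B had a change of 0.20 in place of 0.04, HLA-C of 0.20 in place of 0.03 and B2M of -0.21 in place of -0.04.

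The hairpins differed within FLO1. Set directly against shAPE1#1 in unexposed cells, shAPE1#3 gave lower levels of 3 of 9 genes, where 12.2% of all genes passed (7.52% lower), and all 9 changes were below 0. B2M had 605, 546 and 608 CPM with shAPE1#3, against 781, 794 and 791 CPM with shAPE1#1 (-0.43, SE 0.12, adjusted p = 0.023). NLRC5 (-0.48, SE 0.13, adjusted p = 0.014) and PSMB8 (-0.33, SE 0.09, adjusted p = 0.017) were also lower. These calls depend on single libraries: without shAPE1#1 replicate 1, 0 of 9 passed, without shAPE1#1 replicate 3 or any shAPE1#3 replicate 1 of 9 did, and without the FLO1 shControl library that stood apart, which enters through the pooled spread, 5 of 9 did. With no filter the PSMB8 call was lost.

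The knockdown effect itself differed between the lines for 5 of 9 genes, 1 higher and 4 lower in OE33, where 6.37% of 18199 genes differed (2.74% higher and 3.63% lower). The contrast was the mean unexposed effect of both hairpins in OE33 minus that in FLO1. It was -0.91 for HLA-B (SE 0.13, adjusted p = 4.2e-06), -0.59 for PSMB8 (SE 0.10, adjusted p = 0.00013), -0.49 for B2M (SE 0.12, adjusted p = 0.011), -0.49 for PSMB9 (SE 0.15, adjusted p = 0.049) and 0.30 for TAP2 (SE 0.08, adjusted p = 0.026). HLA-C (-0.34, SE 0.12, adjusted p = 0.083), TAP1 (-0.27), HLA-E (-0.20) and NLRC5 (-0.12) did not pass. The FLO1 part of the contrast averages hairpins that were called different from each other for B2M, NLRC5 and PSMB8, as given above. B2M was lost without FLO1 shControl replicate 3 (adjusted p = 0.067), TAP2 without FLO1 shControl replicate 1 or OE33 shControl replicate 1 or 2 or with no filter (up to 0.168), and PSMB9 in 17 of 25 alternatives (up to 0.194), while HLA-B and PSMB8 held in all 25. Without the FLO1 shControl library that stood apart, which enters through the pooled spread only, 7 of 9 passed, with HLA-C (-0.34, adjusted p = 0.013) and TAP1 (-0.26, adjusted p = 0.035) added.

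Acidic bile salts raised TAP1 in OE33 and changed few other members. In shControl cells 3 of 9 genes rose and 0 fell, where 8.4% of all genes passed (5.89% higher). TAP1 had 157, 162 and 162 CPM after ABS, against 122, 118 and 112 CPM unexposed, and rose by 0.45 (SE 0.07, adjusted p = 0.00015). NLRC5 had 55.8, 52.7 and 52.8 CPM after ABS, against 44.0, 43.3 and 41.1 CPM unexposed, and rose by 0.33 (SE 0.08, adjusted p = 0.011). HLA-E had 523, 550.0 and 526 CPM after ABS, against 470, 454 and 418 CPM unexposed, and rose by 0.25 (SE 0.07, adjusted p = 0.015). None of these groups overlapped. The TAP1 call held in every alternative, HLA-E was lost without unexposed replicate 3 or ABS replicate 2 (up to 0.092), and NLRC5 without unexposed replicate 3 or ABS replicate 1 (up to 0.053).

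TAP1 also rose with ABS in the OE33 knockdown cells, where it was the 1 gene of 9 to pass with each hairpin (4.73% of all genes passed with shAPE1#1, 3.02% higher, and 2.26% with shAPE1#3, 1.76% higher). It had 139, 122 and 148 CPM after ABS, against 101, 107 and 98.8 CPM unexposed, with shAPE1#1 (0.42, SE 0.07, adjusted p = 0.00085). With shAPE1#3 it had 142, 135 and 148 CPM after ABS, against 96.2, 102 and 105 CPM unexposed (0.49, SE 0.07, adjusted p = 0.00023). With shAPE1#1 the call was lost when only the 2 groups compared were fitted (adjusted p = 0.086), and without unexposed shAPE1#1 replicate 2 there were 2 calls in place of 1. HLA-E had changes of 0.13 and 0.21 (adjusted p = 0.28 and 0.11) and NLRC5 of 0.19 and 0.19 (adjusted p = 0.19 and 0.24), and B2M of -0.22 and -0.12 (adjusted p = 0.065 and 0.42). HLA-B, which changed most with knockdown, had ABS changes of -0.04 and 0.02 in the knockdown cells and 0.09 in shControl cells, all short of the threshold.

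The interaction of knockdown and ABS gave 0 of 9 calls with either hairpin in OE33 (0 at an unadjusted p under 0.05, 0 with DESeq2), where 0% of all genes passed with shAPE1#1 and 0.0129% with shAPE1#3. For TAP1 it was -0.03 (95% interval -0.23 to 0.16) with shAPE1#1 and 0.03 (-0.16 to 0.23) with shAPE1#3. For NLRC5 it was -0.14 (-0.37 to 0.08) and -0.14 (-0.36 to 0.09), and for HLA-E -0.13 (-0.31 to 0.05) and -0.05 (-0.23 to 0.13). NLRC5 and HLA-E thus passed with ABS in shControl cells and not in knockdown cells, with no difference between these responses shown by the test, and the intervals leave room for one. In FLO1 the interaction also gave 0 of 9 calls with each hairpin (1 with shAPE1#1, B2M, and 0 with shAPE1#3 at an unadjusted p under 0.05, 0 with DESeq2), where 0% of all genes passed. It was 0.41 (95% interval 0.07 to 0.75, adjusted p = 0.51) for B2M with shAPE1#1. Without the shControl library that stood apart this value was 0.24 (SE 0.12, adjusted p = 0.61), and 0 of 9 passed with each hairpin (2 with shAPE1#1 and 1 with shAPE1#3 at an unadjusted p under 0.05), where 0.0691% and 0% of all genes did.

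In FLO1, ABS gave 0 of 9 calls with edgeR in shAPE1#1, shAPE1#3 and shControl cells, where 5.01%, 1.81% and 3% of all genes passed. At an unadjusted p under 0.05 TAP2 passed in shAPE1#1 cells (-0.19) and in shControl cells (-0.18), 1 gene in each, and 0 genes passed in shAPE1#3 cells, and DESeq2 called 1, 0 and 0. TAP1 had 169, 164 and 160 CPM after ABS, against 165, 157 and 158 CPM unexposed, in shAPE1#1 cells, and 156, 154 and 149 CPM after ABS, against 137, 132 and 132 CPM unexposed, in shAPE1#3 cells. The shControl values were 130, 194 and 151 CPM after ABS, against 138, 136 and 147 CPM unexposed, with the 194 CPM in the library that stood apart. Without that library the 3 groups still gave 0 of 9 calls each (2, 1 and 3 at an unadjusted p under 0.05), where 12.6%, 4.28% and 5.31% of all genes passed. The TAP1 change with ABS in shControl cells was then 0.01 in place of 0.17, that of HLA-B -0.20 in place of -0.04, that of HLA-C -0.21 in place of -0.04 and that of TAP2 -0.23 (adjusted p = 0.056). The ABS response of shControl cells differed between OE33 and FLO1 for 0 of 9 genes (3 at an unadjusted p under 0.05, 1 with DESeq2), where 1.73% of all genes did. Without that library 3 of 9 differed: TAP1 by 0.46 (SE 0.10, adjusted p = 0.0037), TAP2 by 0.39 (SE 0.09, adjusted p = 0.0083) and HLA-C by 0.37 (SE 0.11, adjusted p = 0.045).

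**Figure D4:**
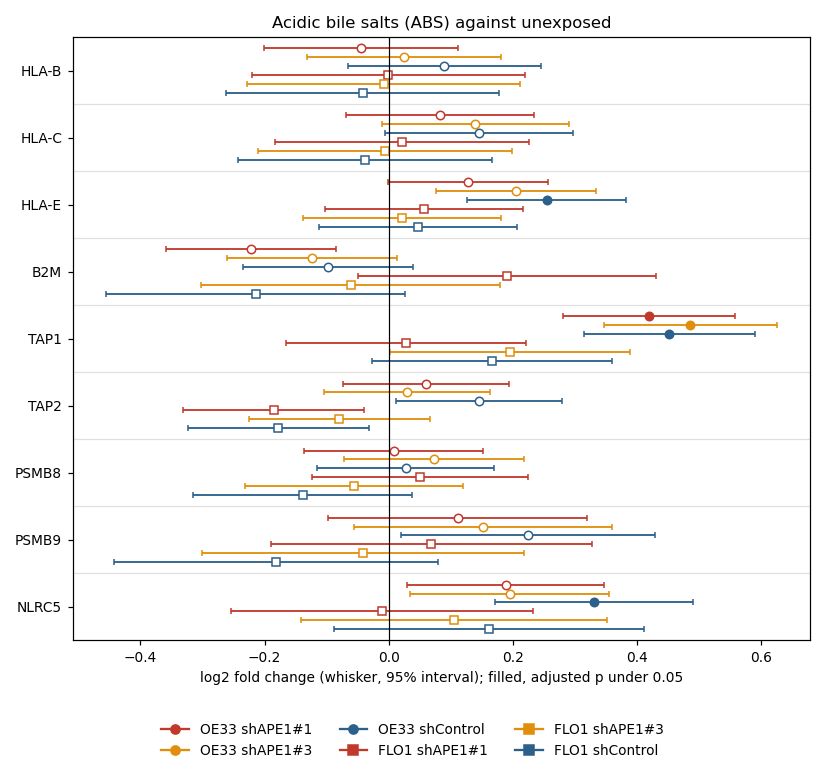
The log2 fold change after ABS against unexposed is plotted for each gene (vertical axis) in shAPE1#1, shAPE1#3 and shControl cells of OE33 (circles) and FLO1 (squares); whiskers are 95% intervals and filled marks passed the test. TAP1 is the gene with filled marks in all 3 OE33 groups, at 0.42 to 0.49.

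Other genes of the pathway were counted from a list of 16 loading and processing genes. In unexposed OE33 cells 1 of 16 fell and 0 rose with shAPE1#1, and 2 fell and 3 rose with shAPE1#3 (list medians -0.04 and 0.06), against 8.24% higher and 8.13% lower with shAPE1#1 and 11.2% and 10.5% with shAPE1#3 among all genes. HLA-F, a non-classical heavy chain, fell by 0.67 (SE 0.11, adjusted p = 0.00011) and 0.77 (SE 0.11, adjusted p = 2.0e-05), with 34.3 ± 5.77 and 31.9 ± 2.51 CPM in shAPE1#1 and shAPE1#3 cells, against 54.7 ± 5.01 CPM in shControl cells. With shAPE1#3, TAPBP (tapasin, which holds class I molecules at the transporter) rose by 0.34, ERAP1 (the aminopeptidase that trims peptides in the endoplasmic reticulum) rose by 0.30 and TAPBPL, a tapasin-related peptide editor, fell by 0.28. ABS in OE33 shControl cells raised 4 of 16 and lowered 0, where 5.89% of all genes were higher and 2.51% lower: TAPBP by 0.46 (SE 0.07, adjusted p = 7.4e-05), ERAP1 by 0.28, and the loading chaperones CALR by 0.27 and PDIA3 by 0.19. TAPBP also rose with ABS in shAPE1#1 (0.36) and shAPE1#3 cells (0.34). In unexposed FLO1 cells 1 of 16 rose with shAPE1#1 and 0 fell, where 4.52% of all genes were higher and 2.22% lower: MR1, which presents vitamin metabolites to MAIT cells, had 8.42 ± 0.605 CPM against 3.02 ± 0.653 CPM in shControl cells (1.47, SE 0.17, adjusted p = 7.4e-06).

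Of 18 regulators of class I transcription, 5 rose and 2 fell with shAPE1#1 and 4 rose and 1 fell with shAPE1#3 in unexposed OE33 cells (list medians 0.03 and 0.05), where 16.4% and 21.7% of all genes passed; the share with shAPE1#3, 5 of 18, is near that of all genes. NFKB2 (0.48 and 0.45) and RELB (0.45 and 0.51), subunits of the non-canonical NF-kB pathway, and IFNGR1, a chain of the interferon gamma receptor (0.41 and 0.46), rose with both hairpins. RFX5, a subunit of the RFX complex that binds class I and class II promoters, fell by 0.36 (SE 0.07, adjusted p = 0.0011) and 0.29 (SE 0.07, adjusted p = 0.0059). NFKB2 rose with ABS in all 3 OE33 groups, by 0.58 in shAPE1#1, 0.62 in shAPE1#3 and 0.77 in shControl cells, and in all 3 FLO1 groups, by 0.68, 0.86 and 0.96 (0.77 in FLO1 shControl cells without the library that stood apart). IRF1, an interferon gamma responsive activator of TAP1 and PSMB9, rose with ABS in OE33 shAPE1#3 (0.29) and shControl cells (0.31).

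Many interferon-stimulated genes fell with knockdown in OE33, and some rose with shAPE1#1 in FLO1. Of 26 tested in OE33, 16 fell and 0 rose with shAPE1#1 and 14 fell and 1 rose with shAPE1#3 in unexposed cells (list medians -0.64 and -0.53), where 8.13% and 10.5% of all genes were lower. IFI27 fell by 2.78 and 2.90 and IFI6 by 1.79 and 2.01 on the log2 scale. Of 24 tested in FLO1, 8 rose and 0 fell with shAPE1#1 unexposed, and 12 rose and 0 fell after ABS, where 4.52% and 8.26% of all genes were higher. GBP1, a guanylate-binding protein induced by interferon gamma, rose by 2.05 and 2.20. Without the FLO1 library that stood apart these counts were 9 and 11. With shAPE1#3 in unexposed FLO1 cells 1 rose and 2 fell, where 0.166% of all genes were higher and 0.622% lower, and 1 rose and 6 fell without that library. ABS in OE33 raised 7 with shAPE1#1, 6 with shAPE1#3 and 5 with shControl, among them OAS1 (0.95, 0.83 and 1.15), and lowered 0, 0 and 1, where 3.02%, 1.76% and 5.89% of all genes were higher. Summed, the 5 class II genes had 20.3 to 22.8 and 21.6 to 22.9 CPM in unexposed OE33 shAPE1#1 and shAPE1#3 libraries. In the shControl libraries this sum was 12.5 to 15.0 CPM. Only 2 of the 5 averaged at least 1 CPM in each of these groups, so the sum does not describe the 5 as a set. The immune markers summed to 5.87 to 7.46 and 6.53 to 8.62 CPM in these knockdown libraries, against 6.03 to 8.51 CPM with shControl. The part of immune cell or class II transcripts in the results was not tested.

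The patterns of the members over the 12 groups were described by Pearson's r of group means of log2 CPM, each line centred on its unexposed shControl cells. Group means share a line, a centre and scaling, so no test is given. To the mean of HLA-B, HLA-C and HLA-E, PSMB8 had r = 0.965, PSMB9 0.944, B2M 0.859, TAP1 0.516, NLRC5 0.237 and TAP2 -0.796. Of 18116 genes outside the members, those most like the HLA mean were TDRD7 (0.983), IFI35 (0.980), SYT16 (0.978), HLA-F (0.977) and ZNF488 (0.975). IFI35, an interferon-induced gene, averaged 15.9 ± 2.02 and 14.7 ± 1.03 CPM in unexposed OE33 shAPE1#1 and shAPE1#3 cells, against 26.0 ± 4.19 CPM in shControl cells. The genes most like TAP1 were others: SPSB1 (0.950), APOL6 (0.944), STX5 (0.921), ABHD4 (0.919) and STAT2 (0.918), the last a subunit of the interferon-activated factor ISGF3.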

How the data were processed

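The authors deposited a matrix of raw read counts, with Ensembl genes in rows and 36 libraries in columns. Per the submitters' processing notes, Trimmomatic 0.36, STAR 2.5.2b, featureCounts and Subread 1.5.2 were used with GRCh38; the annotation release and the strand and multiple-mapping settings were not given in the sources used here. GENCODE release 29 matched 56898 of 57500 IDs, the rest holding 0.018% of counts. Each line's 18 libraries, or all 36 for differences between lines, were fitted with edgeR 4.0.16 in R 4.3.3 (TMM, default expression filter, 1 coefficient per group, robust quasi-likelihood test, Benjamini-Hochberg adjustment over all genes tested, threshold 0.05), after a check on simulated counts. CPM used TMM factors over 36 libraries; lengths are merged exons. DESeq2 1.42.0, its size factors, no filter, a replicate block, only the groups compared, and each library left out were alternatives. No replicates were copies (chi-square per degree of freedom at least 2.41). Members and lists were chosen with earlier results of these data known; all 9 members are named, and of each list up to 4 called genes of largest change, or the 2 of highest level where none was called.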

Additional observations from a re-analysis of the deposited data

Results flagged for a closer look

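The effect of APE1 knockdown differed between OE33 and FLO1 for 5 of the 9 genes, by a test of the difference itself (edgeR, mean unexposed effect of both hairpins, OE33 minus FLO1), where 6.37% of 18199 genes differed. The differences were -0.91 for HLA-B, -0.59 for PSMB8, -0.49 for PSMB9, -0.49 for B2M and 0.30 for TAP2 on the log2 scale. HLA-B, PSMB8, PSMB9 and B2M fell with both hairpins in OE33, where FLO1 had changes from -0.19 to 0.24 for these 4 genes, none past the threshold (edgeR; 1 of these changes, PSMB8 with shAPE1#1, had an unadjusted p under 0.05). For B2M and PSMB8 the FLO1 mean joins hairpins that were called different from each other, so it is not an effect common to both. The PSMB9 difference (adjusted p = 0.049) was lost in 17 of 25 alternatives, the replicate block among them. The TAP2 difference was lost in 4 of 25 and that of B2M in 1 of 25, while HLA-B and PSMB8 held in all. TAP2 rose with both hairpins in OE33 and had changes of -0.01 and -0.05 in FLO1. Line, medium and any difference between the cultures cannot be told apart here.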

How the results depend on the processing

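Of 54 calls of members, tried in 691 alternatives in all, 0 reversed, 592 kept their call and 99 lost it; 30 calls held throughout. DESeq2 kept 54 of 54, its size factors 52, the replicate block 52, no filter 49, only the groups compared 46, and leaving out a library 339 of 421. Replicate numbers did not pair the libraries (median correlation of same-numbered deviations -0.002 in FLO1 and 0.019 in OE33), and the replicate block changed the count of members called by at most 1. Counts of members called that moved by over 1.5 times were as follows, with the cause not tested. With only the groups compared, they were 4 for OE33 shAPE1#1 unexposed, 0 and 2 for ABS in OE33 shAPE1#1 and shAPE1#3, 2 and 0 for FLO1 shAPE1#1 unexposed and after ABS, 1 for ABS in FLO1 shAPE1#1, and 8 for FLO1 shAPE1#3 against shAPE1#1. DESeq2 gave 2 for ABS in each OE33 shAPE1 group, 1 for ABS in FLO1 shAPE1#1 and 1 for the line difference in ABS response, and no filter gave 2 for ABS in OE33 shAPE1#1. Leaving out a library gave 4 to 8 for OE33 shAPE1#1 and 4 to 8 for shAPE1#3 unexposed, 1 to 3 for ABS in OE33 shControl, 1 to 2 for ABS in OE33 shAPE1#1, 0 to 2 and 2 to 6 for FLO1 shAPE1#1 unexposed and after ABS, 0 to 5 for FLO1 shAPE1#3 against shAPE1#1, 0 to 3 for the line difference in ABS response and 3 to 7 for that in knockdown effect. Leaving out FLO1 shControl replicate 2 after ABS, or FLO1 shAPE1#3 replicate 3 after ABS, from fits of other groups was chosen after seeing the data. Each member had at least 446 counts in every library; what more libraries than 3 a group would show was not tested.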
